A study of Mus musculus with 4 samples.

Results

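The genes described here are 37 mouse genes of the interferon response and of antigen processing, followed in 4 microarray libraries of BA/F3 cells, an interleukin 3 dependent mouse line commonly called pro-B. Genes were matched by exact symbol to the probe sets that the platform annotation gives a single symbol. This found 35 of the 37, among 18193 genes with such a probe set, and the probe set with the highest mean over the libraries stood for the gene. Isg15, an interferon-induced ubiquitin-like modifier, has only a probe set shared with another symbol and gets no value here, and Ifi44 was not matched. Of the 35 genes, 22 had a mean log2 level of at least 4 and were tested, and 13 lay below. The nearest gene inside that limit was Igtp, at a mean of 4.93, and the nearest outside was Stat2, at 3.97.

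Going by their titles, 2 libraries are of cells in which human ETV6-RUNX1 (also TEL-AML1) can be induced, the transcription factor fusion of a childhood B-cell leukemia, and the other 2 are of cells without it, which the design text calls empty vector lines. All 4 received the inducer mifepristone at 32.5 pM for 16 h, so no library is free of the drug. The labels do not name the promoter that drives the fusion or say whether a line is 1 clone. They do not say that replicates were separate cultures beyond calling them independent, and p-values here reflect only how far these libraries vary, which may be technical.

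The labels contradict each other. The description field calls ETV6-RUNX1 replicate 1 a control and control replicate 1 a fusion-expressing library; title and description match for both replicate 2 libraries. Libraries are named by title below. The members as a set and the pathway lists of other genes are given by title and by description, and a single gene by description unless its title difference is named. Over 17720 tested probe sets, the highest Pearson r across probe sets was 0.972, between control replicate 1 and ETV6-RUNX1 replicate 2, and ETV6-RUNX1 replicate 1 was closest to control replicate 2 (0.966). The design text and titles speak of chromatin immunoprecipitation, but the protocols are for total RNA, so RNA levels are what the values were taken to be. Of 14 measured early B cell markers, 10 lay within 0.5 of the lowest value of the table in all 4 libraries, Pax5, Ebf1, Rag1 and Vpreb1 among them, while the 3 interleukin 3 receptor genes were all tested. Markers of T and NK cells (8 of 8) and of stromal cells (6 of 6) lay within that margin too. The mouse transferrin receptor control probe sets, a gauge of RNA integrity, had a 3' minus 5' difference of 1.31 in ETV6-RUNX1 replicate 1 and of 3.87 to 4.53 in the other libraries. Those of beta-actin lay between 0.63 and 0.70 in all 4, and those of Gapdh between -0.37 and -0.30. Whether RNA integrity had a part in any result below was not tested.

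Interferons are secreted proteins that bind surface receptors and act through JAK kinases and STAT proteins. Type I interferon brings STAT2 and IRF9 into a complex that binds the interferon-stimulated response element in promoters, and interferon gamma acts through the gamma-activated site. Their target genes include antiviral proteins, and also the immunoproteasome and the transporters that supply peptides to MHC class I molecules. In hematopoietic cells many of these genes have a basal level without added interferon.

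The members fell into a detected and an undetected set. Values are log2 levels made by GCRMA, an array summary method with a lowest value of 2.23, and a level near it is background. Of the antiviral genes usually used as markers of a type I interferon response, 6 lay at or close to that value in every library. Ifit1, which encodes an RNA-binding antiviral protein, and Oasl2, Rsad2 (viperin), Mx2 (a dynamin-like GTPase) and Ifih1 (the RNA sensor MDA5) read 2.23 in all 4 libraries, and Ifit3 read 2.29 to 2.35. Iigp1, an immunity-related GTPase, read 2.33 to 2.43. These 7 genes were within 0.5 of the lowest value throughout. Mx1, another dynamin-like GTPase, was at 2.29 to 2.35 in 3 libraries and at 4.06 in control replicate 1.

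The other 5 genes below the limit were Gbp2 and Gbp3, both guanylate-binding proteins, Usp18, the protease that removes ISG15 from proteins, and the transcription factors Irf7 and Stat2. Gbp2 read 2.35 to 2.46 in 3 libraries and 3.15 in control replicate 1, and Gbp3 read 2.47 to 2.88. Usp18 read 2.69 to 3.14. Irf7, the master regulator of type I interferon production, read 3.15 in all 4 libraries, and Stat2 read 3.94 to 4.01. The interferon genes themselves were also low: the 8 measured ones, Ifnb1 and Ifng among them, had 0 tested probe sets.

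**Figure D1:**
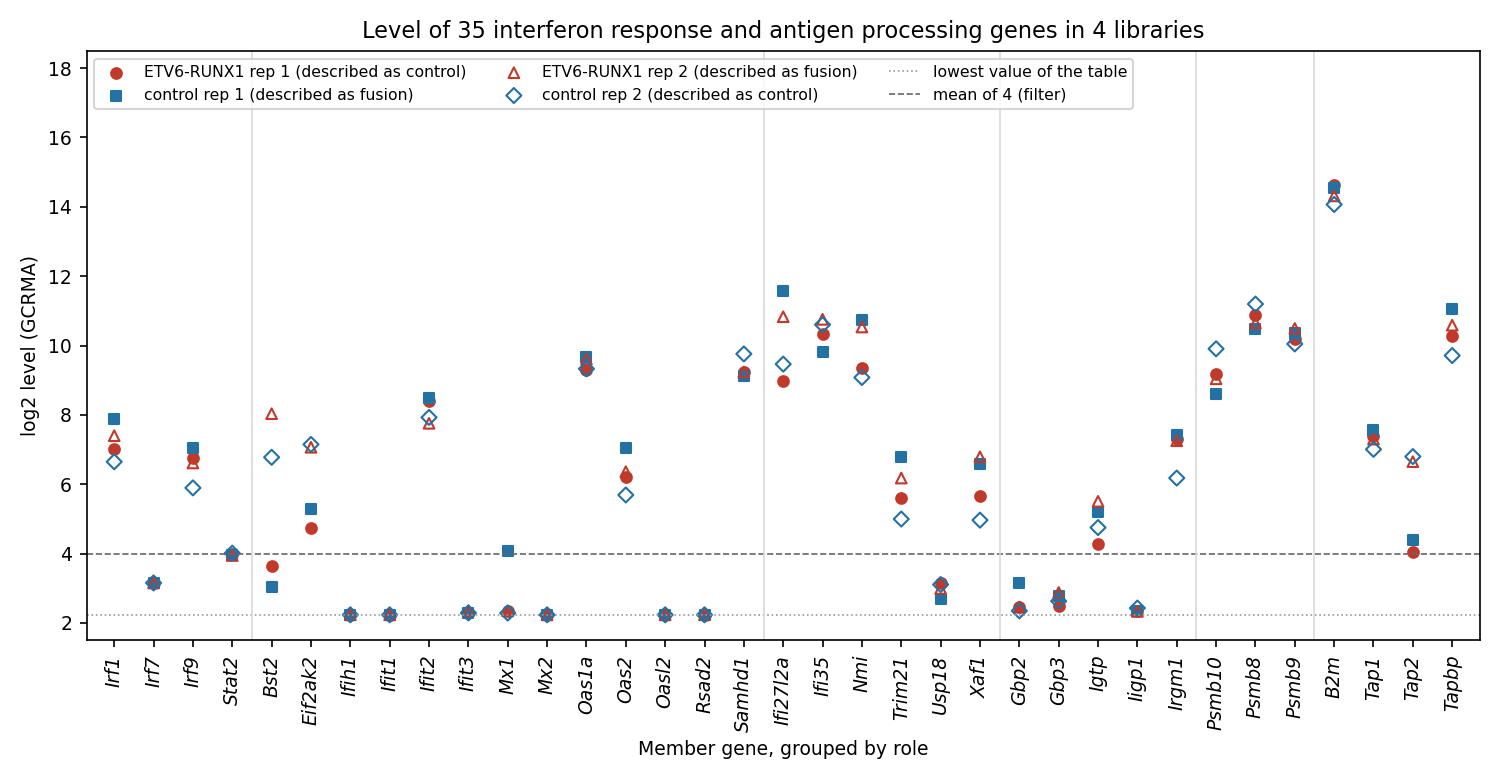
Log2 level of the 35 measured genes, grouped by role, in each of the 4 libraries. Filled symbols are replicate 1, open symbols replicate 2, red is titled ETV6-RUNX1 and blue is titled control. Genes such as Ifit1 and Rsad2 sit on the dotted line at the lowest value, 2.23, while Bst2, Tap2 and Eif2ak2 separate by replicate number.

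Promoter sequence was available for 30 of the 37 genes, from RefSeq on GRCm38.p6, as 250 bases before to 50 after a gene's start. The core of the interferon-stimulated response element, searched on both strands as GAAA and GAAA with any 2 bases between, occurred in 15 of the 30 and in 3.99% of the 27025 genes of the table. It occurred in 7 of 9 genes below the limit and in 7 of 19 tested genes; the remaining match was Isg15. The gamma-activated site, searched as TTCNNNGAA, which reads the same on both strands, occurred in 9 of the 30 and in 9.55% of all genes. All 9 were tested genes (Bst2, Eif2ak2, Ifi35, Ifit2, Igtp, Irf1, Oas1a, Psmb8 and Samhd1), and 0 of 9 genes below the limit had a match. The RUNX site, searched as TGTGGT on both strands, occurred in 6 of the 30 (Gbp2, Oasl2, Psmb10, Samhd1, Stat2 and Tapbp) and in 18.9% of all genes, and as TGCGGT in Ifi35 alone and in 7.34% of all genes. Matches of different patterns shared bases in 1 gene, Bst2, between the response element and the gamma-activated site. The members were chosen as known interferon targets, so these shares are a description.

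Stretches are printed for the 6 genes with a response element match and the largest difference by description, to show where the element lies, and for Ifit1, which was added after its values were seen as a gene with the element and no detected level. Each reads 5′ to 3′ on the gene's strand, with matches of the response element core, on either strand, in capitals. For Trim21 the match lies after the start, so 30 bases from position 7 to 36 are shown (chr7:102565447-102565476, minus strand); the others end at the base before the start and span 150 bases. These are Igtp (chr11:58199406-58199555, plus), Irgm1 (chr11:48871421-48871570, minus), Gbp2 (chr3:142620513-142620662, plus), Oas1a (chr5:120907526-120907675, minus), Bst2 (chr8:71537473-71537622, minus) and Ifit1 (chr19:34640739-34640888, plus).
Trim21: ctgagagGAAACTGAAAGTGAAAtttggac
Igtp: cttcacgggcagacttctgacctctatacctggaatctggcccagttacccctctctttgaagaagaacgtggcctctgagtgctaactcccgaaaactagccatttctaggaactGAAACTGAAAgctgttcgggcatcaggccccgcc
Irgm1: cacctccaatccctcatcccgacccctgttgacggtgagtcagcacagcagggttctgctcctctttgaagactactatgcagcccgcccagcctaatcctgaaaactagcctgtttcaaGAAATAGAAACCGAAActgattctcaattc
Gbp2: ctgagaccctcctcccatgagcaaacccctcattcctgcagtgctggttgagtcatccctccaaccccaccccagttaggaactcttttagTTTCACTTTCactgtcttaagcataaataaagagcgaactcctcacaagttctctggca
Oas1a: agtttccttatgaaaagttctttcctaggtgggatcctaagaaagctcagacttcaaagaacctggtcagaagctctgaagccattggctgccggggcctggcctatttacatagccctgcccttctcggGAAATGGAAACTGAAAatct
Bst2: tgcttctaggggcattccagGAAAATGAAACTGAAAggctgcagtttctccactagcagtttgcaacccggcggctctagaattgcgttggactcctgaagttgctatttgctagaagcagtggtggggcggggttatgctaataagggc
Ifit1: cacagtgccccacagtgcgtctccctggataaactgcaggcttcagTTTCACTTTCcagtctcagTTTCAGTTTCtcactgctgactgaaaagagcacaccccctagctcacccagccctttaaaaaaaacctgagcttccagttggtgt
Trim21, Irgm1, Oas1a, Bst2 and Ifit1 each carry 2 matches, which overlap in the first 4, and Igtp and Gbp2 carry 1. Ifit1, with 2 matches, had no detected level in any library, and Oas1a, with 2, read 9.29 to 9.68.

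Grouped by title, the interferon and antigen processing genes did not separate. All 22 tested genes had overlapping groups, where 3.96% of the 8892 tested genes had fusion libraries entirely above control and 5.71% entirely below. Differences ran from -0.62 for Ifi27l2a (SE 1.05) to 0.93 for Bst2 (SE 2.12), with 10 genes above 0 (46.2% of all genes were), and a median of -0.03 beside -0.02 over all tested genes. By limma, 0 of 22 passed an adjusted p of 0.05 over the 17720 probe sets, 0 passed an unadjusted p of 0.05, and each had an adjusted p of 1. None differed at least 2-fold without overlap, beside 0.0675% of all genes higher and 0.135% lower. Over all probe sets 0% were called and 0.282% had an unadjusted p under 0.05, as had 20 of the 8892 tested genes. Another tested probe set of Ifi35, which did not stand for the gene, was higher without overlap by title. It read 7.35 and 7.55 against 6.72 and 7.34, a difference of 0.42 (SE 0.34).

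Grouped by description, 17 of the 22 genes read higher and 5 lower in the libraries described as fusion-expressing. The median difference was 0.33, beside 0.01 over all tested genes, of which 51.5% were above 0. Groups did not overlap for 12 genes: 10 were higher, beside 30.3% of all genes, and 2 lower, beside 25.6%. None of the 22 passed the limma threshold (adjusted p 0.13 to 0.98), and 0.0113% of probe sets did. At an unadjusted p of limma under 0.05 there were 7 of the 22 members, beside 2076 of the 8892 tested genes and 19.7% of all probe sets. A lower share of cells expressing a gene and less RNA per cell cannot be told apart in such bulk samples. Each grouping counts the difference of the other as spread.

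Markers of mast cells and basophils moved with the description grouping. Of 11 measured, 6 were higher without overlap and 0 lower, and 4 were within 0.5 of the lowest value in every library (Kit, Tpsb2, Tpsab1 and Mcpt4). Of the 5 tested ones, 4 were higher without overlap, where 30.3% of all tested genes were. These 5 had a median difference of 3.60 and 4 were at least 2-fold higher. Fcer1a, a chain of the IgE receptor, read 9.91 in control replicate 1 and 7.69 in ETV6-RUNX1 replicate 2 against 2.37 and 2.32, a difference of 6.46, and Hdc, which makes histamine, read 8.16 and 7.84 against 3.70 and 5.09. Their summed level (log2 of the sum of linear values), in which Gata2 at 12.44 to 13.26 weighs most, was 13.81 and 12.65 in the described fusion libraries and 12.75 and 12.63 in the others, so those ranges overlapped. Of 7 dendritic cell markers, which include the member Bst2, 4 were near the lowest value throughout (Siglech, Flt3, Xcr1 and Ccr9), and their summed level was 10.34 and 10.42 against 9.63 and 9.12. Of 8 macrophage markers 0 were higher and 2 lower without overlap (Adgre1 and Itgam), and 3 were near the lowest value throughout (Cd14, Mrc1 and Marco). Among the 3 tested macrophage markers 1 was lower without overlap, where 25.6% of all tested genes were. The summed level of the 8 was 8.92 and 9.22 against 8.31 and 9.63. Of 8 neutrophil markers 6 were near the lowest value throughout, and the summed level was 5.92 and 6.59 against 5.86 and 8.75, the highest in control replicate 2. The part of these markers in the members' differences was not tested.

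**Figure D2:**
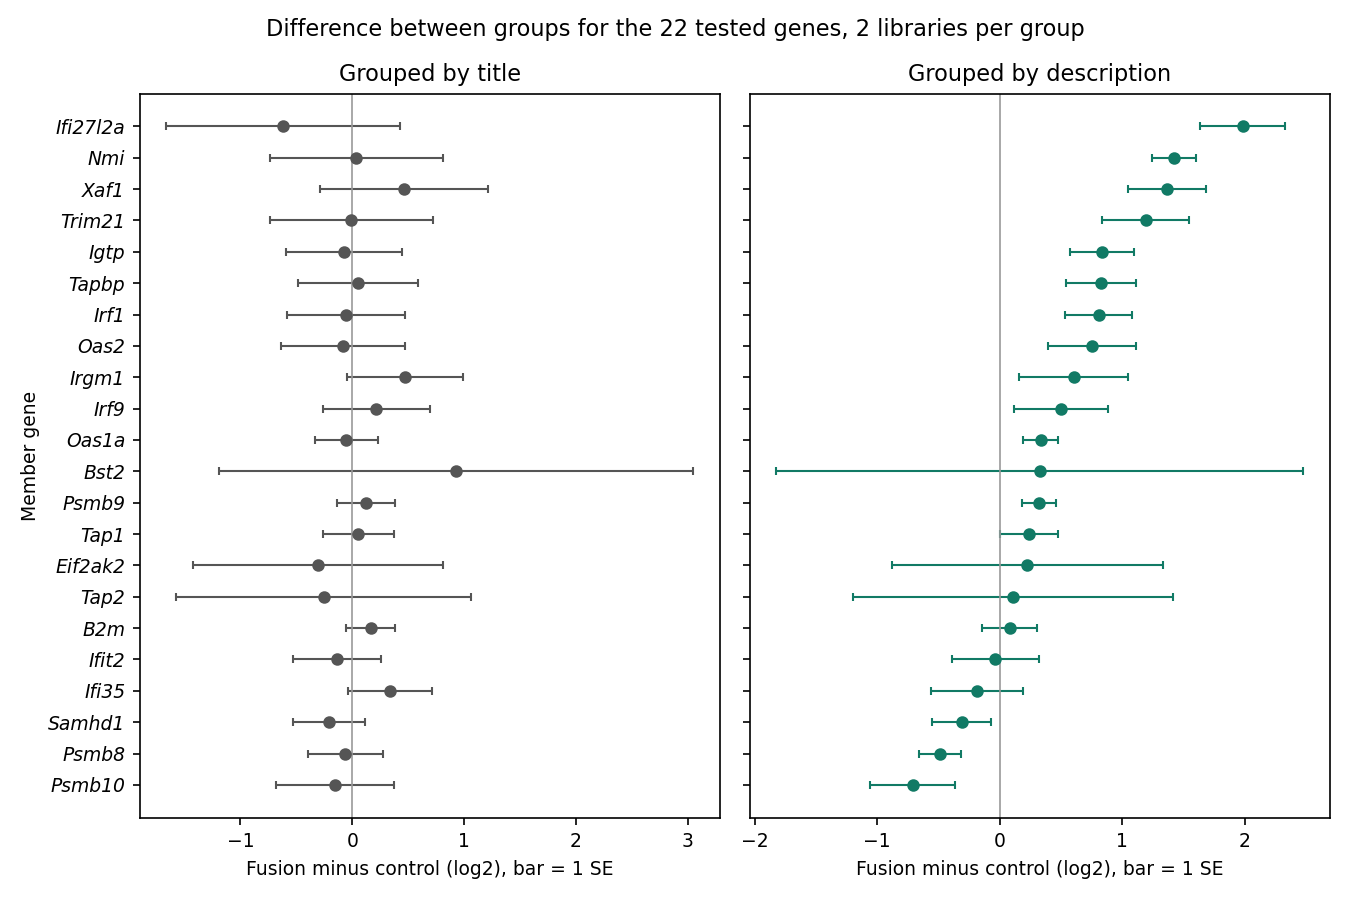
Difference between fusion and control libraries for the 22 tested genes, grouped by title (left) and by description (right), on the log2 scale. Points are differences of 2 libraries against 2 and bars are 1 SE from limma. By description Ifi27l2a, Nmi, Xaf1 and Trim21 lie at 1.19 to 1.98, and Bst2, Tap2 and Eif2ak2 have the wide bars.

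Among the transcription factors, Irf1, which activates antiviral and MHC class I genes, read 7.87 in control replicate 1 and 7.40 in ETV6-RUNX1 replicate 2, against 7.0 in ETV6-RUNX1 replicate 1 and 6.65 in control replicate 2. Both libraries described as fusion-expressing were thus above both others, by 0.81 (SE 0.27, limma adjusted p = 0.24). Irf9, the DNA-binding part of the type I interferon complex, read 6.74 and 7.03 in the fusion and control libraries of replicate 1, and 6.61 and 5.89 in those of replicate 2. Its groups overlapped by description, since ETV6-RUNX1 replicate 1 lay above ETV6-RUNX1 replicate 2, and the difference was 0.50 (SE 0.38, limma adjusted p = 0.54) with all libraries and 0.08 without control replicate 2. Irf7 and Stat2 gave no difference to test.

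Of the antiviral effectors, 6 of 13 were tested, and Oas1a and Oas2, which encode synthetases of the RNase L activator, were higher by description. Oas2 read 7.05 in control replicate 1 and 6.36 in ETV6-RUNX1 replicate 2, against 6.22 in ETV6-RUNX1 replicate 1 and 5.69 in control replicate 2, a difference of 0.75 (SE 0.36, limma adjusted p = 0.35). Oas1a read 9.68 and 9.61 in the same order against 9.29 and 9.33, so the described fusion libraries were higher by 0.33 (SE 0.14, limma adjusted p = 0.31). The spread within each described pair of Oas1a was 0.05 (SD, n = 2) and 0.03, so its groups were apart although the difference was small. Ifit2, a relative of Ifit1, was detected, at 8.40 and 8.50 in replicate 1 and 7.76 and 7.93 in replicate 2 (fusion, then control by title). Its difference by description was -0.04 (SE 0.36), and both replicate 1 libraries lay above both replicate 2 libraries. Samhd1, a dNTP hydrolase that restricts retroviruses, read 9.13 to 9.24 in 3 libraries and 9.76 in control replicate 2, with a difference by description of -0.31 (SE 0.24). The other tested probe sets of Samhd1 differed by -0.21 and -0.67.

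Bst2, Eif2ak2 and Tap2 differed between the replicate numbers, which the labels do not explain. Bst2 (tetherin, which holds budding virus at the membrane) read 3.64 in ETV6-RUNX1 and 3.04 in control of replicate 1, and 8.03 and 6.78 in those of replicate 2. The replicate 2 mean was higher by 4.07. Tap2, a subunit of the peptide transporter of antigen presentation, read 4.03 and 4.40 in replicate 1 and 6.65 and 6.80 in replicate 2, which was higher by 2.51. Eif2ak2, the RNA-activated kinase PKR, read 4.74 and 5.27 in replicate 1 and 7.07 and 7.15 in replicate 2, higher by 2.10. Replicate numbers did not overlap for 10 of 22 members, 5 in each direction, beside 31.2% of all tested genes. Of all tested genes 0.798% differed at least 4-fold in their means and 0.731% differed at least 4-fold between replicate numbers without overlap, and these 3 of 22 members did.

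The probe sets of Eif2ak2 did not agree on that direction. A second probe set read 7.38 and 6.29 in replicate 1 and 5.14 and 5.23 in replicate 2, lower by 1.65, and the third read 2.75 and 3.07 against 7.65 and 7.70, higher by 4.77. Bst2 and Tap2 had 1 probe set each. By description these genes differed by 0.33 (SE 2.15) for Bst2, 0.11 (SE 1.31) for Tap2 and 0.23 (SE 1.11) for Eif2ak2. All lay far within the spread, which here includes the shift between replicate numbers. Within replicate 1, then replicate 2, the differences were -0.61 and 1.26 for Bst2, 0.37 and -0.15 for Tap2, and 0.53 and -0.08 for Eif2ak2. The difference over all libraries turned negative for each gene when either ETV6-RUNX1 library was left out. Without its replicate 1, then without its replicate 2, it was -1.24 and -2.17 for Bst2, -1.27 and -1.02 for Tap2, and -0.98 and -0.67 for Eif2ak2. The difference between replicate numbers was not tested.

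**Figure D3:**
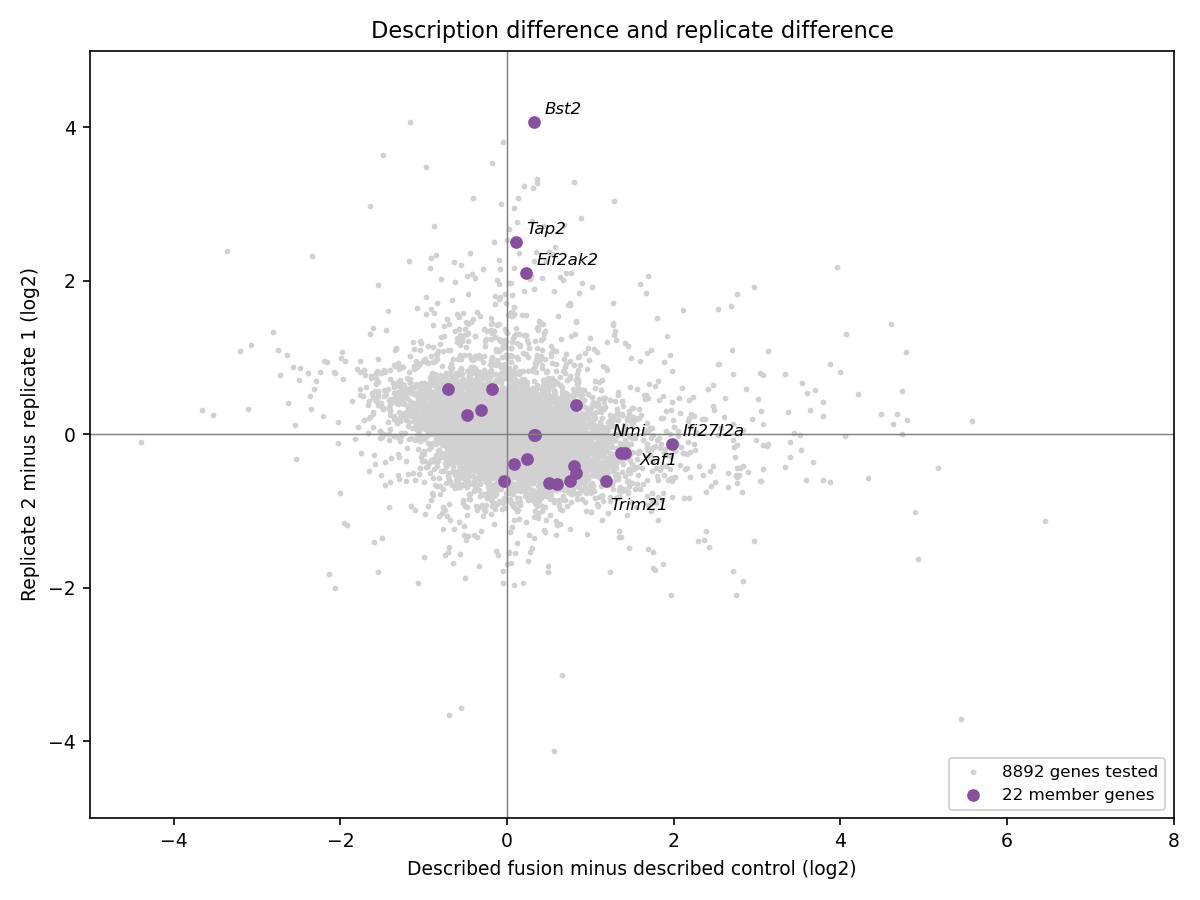
Difference by description (horizontal, log2) against replicate 2 minus replicate 1 (vertical, log2) for the 8892 tested genes in grey and the 22 members in purple. Bst2, Tap2 and Eif2ak2 stand out along the vertical axis at 4.07, 2.51 and 2.10, and Ifi27l2a, Nmi, Xaf1 and Trim21 along the horizontal axis.

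The 4 members that differed at least 2-fold by description, all higher, came from the other induced genes. Ifi27l2a, a small mitochondrial and membrane protein gene strongly induced by type I interferon, read 11.58 in control replicate 1 and 10.83 in ETV6-RUNX1 replicate 2, against 8.98 in ETV6-RUNX1 replicate 1 and 9.46 in control replicate 2. The described groups were 11.20 ± 0.53 (SD, n = 2) and 9.22 ± 0.34, a 3.95-fold difference (log2 1.98, SE 0.35, limma adjusted p = 0.15). Nmi, which encodes a STAT- and MYC-binding protein, read 10.74 and 10.53 against 9.35 and 9.08. Its described groups were 10.64 ± 0.14 (SD, n = 2) and 9.22 ± 0.19, a 2.68-fold difference (log2 1.42, SE 0.18, limma adjusted p = 0.13).

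Xaf1, a pro-apoptotic gene that antagonises XIAP, read 6.57 in control replicate 1 and 6.79 in ETV6-RUNX1 replicate 2 against 5.67 in ETV6-RUNX1 replicate 1 and 4.96 in control replicate 2, a 2.57-fold difference (log2 1.36, SE 0.32, limma adjusted p = 0.17). Trim21, the cytosolic antibody receptor and ubiquitin ligase, read 6.80 and 6.18 against 5.60 and 5.00, higher by 1.19 (SE 0.36, limma adjusted p = 0.22). The second probe set of Xaf1 read 2.23 in every library, and that of Trim21 read 2.7 to 3.2 with overlapping groups. All 4 genes were separate by description in both replicate numbers: within replicate 1 the differences were 2.60, 1.38, 0.90 and 1.20, and within replicate 2 they were 1.37, 1.45, 1.82 and 1.18, in the order named. At least 2-fold without overlap were 6.41% of all genes higher and 3.67% lower. Ifi35, a partner of NMI, did not follow: it read 10.35 and 9.82 in replicate 1 and 10.76 and 10.60 in replicate 2 (fusion, then control by title), a difference by description of -0.19 (SE 0.37). Its other probe sets differed by -0.32 and -0.21.

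Of the immunity GTPases, Igtp, which guards against intracellular parasites, read 5.19 in control replicate 1 and 5.51 in ETV6-RUNX1 replicate 2 against 4.29 in ETV6-RUNX1 replicate 1 and 4.75 in control replicate 2, higher by 0.83 (SE 0.26, limma adjusted p = 0.22). Irgm1, a regulator of that family, read 7.25 to 7.43 in 3 libraries and 6.18 in control replicate 2. Its groups overlapped by description, with a difference of 0.60 (SE 0.45). Without control replicate 2 the difference was 0.04.

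The immunoproteasome subunits, which replace the constitutive catalytic subunits to favour peptides that fit MHC class I, split in direction. Psmb8 read 10.46 in control replicate 1 and 10.65 in ETV6-RUNX1 replicate 2 against 10.89 in ETV6-RUNX1 replicate 1 and 11.20 in control replicate 2, a difference of -0.49 (SE 0.17, limma adjusted p = 0.26). Its second tested probe set differed by -0.65 (SE 0.19). Psmb10 read 8.61 and 9.04 against 9.17 and 9.90, lower with -0.71 (SE 0.34; adjusted p of limma 0.35), which was -0.34 without control replicate 2 and -1.08 without ETV6-RUNX1 replicate 1. Psmb9 ran the other way, at 10.37 and 10.49 against 10.18 and 10.05, a difference of 0.32 (SE 0.14, limma adjusted p = 0.32). In all 3 the described groups did not overlap, and Psmb8 and Psmb10 were the 2 tested members that were lower without overlap. Below the limit for testing, Stat2 and Usp18 were also lower without overlap, at means of 3.95 against 4.00 and 2.84 against 3.12. The other probe set of Stat2 overlapped. Mx1 and Gbp3, also below the limit, were higher without overlap, at 3.20 against 2.32 and 2.83 against 2.55. The Mx1 mean rests on control replicate 1, at 4.06. Its ETV6-RUNX1 replicate 2 value of 2.3479 was barely above the 2.3475 of ETV6-RUNX1 replicate 1, both near the lowest value. The matching share over all genes below the limit was not counted.

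Of 23 genes of the constitutive proteasome and its assembly, 19 read lower by description and 4 higher, with a median of -0.29. Groups were apart and lower for 11, where 25.6% of all genes were, and apart and higher for 1, where 30.3% were, and 0 passed. By title 16 of the 23 read higher and 7 lower, with a median of 0.04. The constitutive partners Psmb5, Psmb6 and Psmb7 differed by -0.67 (SE 0.48), -0.54 (SE 0.42) and -0.38 (SE 0.19). Psmb2, a core subunit, differed by -0.99 (SE 0.21) and Psmg2, an assembly chaperone, by 0.83 (SE 0.09). Psme1, an interferon-induced proteasome activator subunit, differed by 0.20 (SE 0.10). Whether the immunoproteasome and constitutive subunits differ in response was not tested.

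Among the peptide loading genes, Tapbp (tapasin, which joins MHC class I to the peptide transporter) was apart by description. It read 11.04 in control replicate 1 and 10.59 in ETV6-RUNX1 replicate 2 against 10.27 in ETV6-RUNX1 replicate 1 and 9.71 in control replicate 2, a difference of 0.83 (SE 0.29, limma adjusted p = 0.25). Tap1, the other transporter subunit, read 7.56 and 7.30 against 7.38 and 7.01, a difference of 0.24 (SE 0.24), with overlapping groups. The further probe sets of Tap1 read 2.23 to 2.27. The promoter windows of Tap1 and Psmb9 lie on opposite strands of chromosome 17 and share 275 of their 300 bases, and these genes differed by 0.24 and 0.32. B2m, the invariant light chain of MHC class I, read 14.54 and 14.31 against 14.63 and 14.07, a difference of 0.08 (SE 0.23). Its other probe set differed by 0.03 (SE 0.26). The class I heavy chains H2-K1 and H2-D1 differed by -0.04 (SE 0.16) and 0.03 (SE 0.17), and their probe sets may also detect related class I genes. Of 10 tested class I and loading genes outside the members, 5 read higher, 5 lower and 0 passed by description, and by title 8 read higher and 2 lower. The class I activator Nlrc5 differed by -0.81 (SE 0.40).

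**Figure D4:**
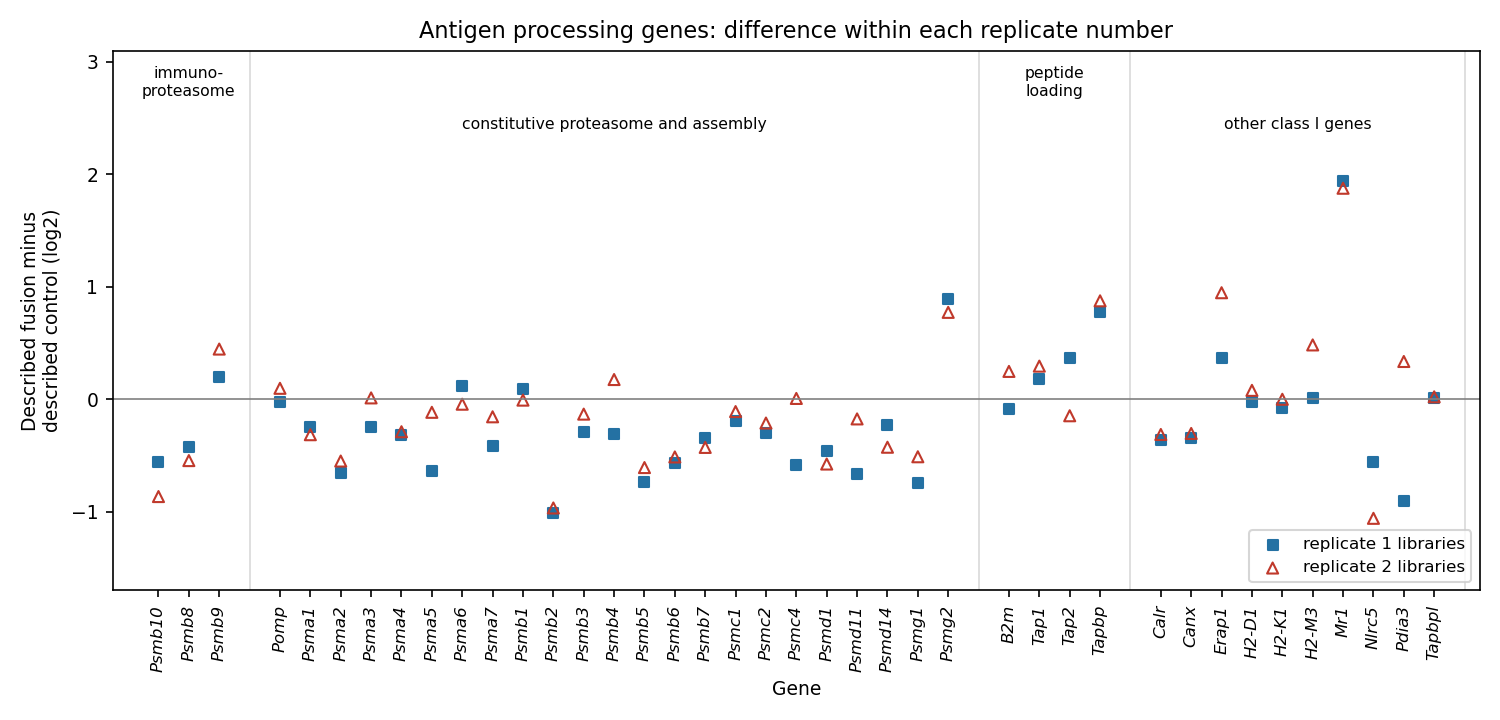
Described fusion minus described control, on the log2 scale, within the replicate 1 libraries (blue squares) and the replicate 2 libraries (red triangles), for immunoproteasome, constitutive proteasome, peptide loading and other class I genes. Psmb8 and Psmb10 lie below 0 with most constitutive subunits, and Psmb9 and Tapbp lie above 0 in both.

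Upstream of the members, the list of receptors, JAK kinases, STAT genes and inhibitors of the pathway had 12 of 15 genes tested. By description 11 read higher, 8 of them without overlap (30.3% of all genes were), with a median of 0.54 and 0 passing, and by title 5 of the 12 read higher, with a median of -0.08. The inhibitors Socs3, Ptpn2 and Pias1 are among the 11, and the groups of Pias1 overlapped. Socs1, another inhibitor on the list, read 2.23 in all 4 libraries and was not tested. The type I receptor chains Ifnar1 and Ifnar2 differed by 0.63 (SE 0.27) and -0.12 (SE 0.21), and the interferon gamma receptor chains Ifngr1 and Ifngr2 by 0.35 (SE 0.26) and 1.45 (SE 0.63). The kinases Jak1, Jak2 and Tyk2 differed by 0.62 (SE 0.48), 0.83 (SE 0.21) and 0.23 (SE 0.27). Socs3, a feedback inhibitor of JAK signalling, had the largest difference of the list: it read 9.32 and 9.56 against 7.75 and 7.68, higher by 1.72 (SE 0.18, limma adjusted p = 0.12). Ptpn2, a phosphatase that acts on JAK1, read 12.35 and 12.26 against 11.45 and 11.53, a difference of 0.81 (SE 0.10, limma adjusted p = 0.13). Psme2 was not analysed here, since no probe set carries its symbol alone.

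Of 59 listed interferon-induced genes outside the members, 50 had a single-symbol probe set and 34 were tested. Oas3, Cmpk2, Rtp4, Ddx60 and Parp12 were among those below the limit, at 2.23 in every library. Among the 34 tested, 24 read higher and 10 lower by description, with a median of 0.40. Groups were apart and higher for 18 (30.3% of all genes were) and apart and lower for 6 (25.6% of all genes were), and 0 passed. By title 15 read higher and 19 lower, with overlapping groups for all 34. Ube2l6, the ISG15-conjugating enzyme, read 7.61 in control replicate 1 and 7.23 in ETV6-RUNX1 replicate 2 against 5.26 in ETV6-RUNX1 replicate 1 and 5.19 in control replicate 2, a difference of 2.20 (SE 0.22, limma adjusted p = 0.12). Ifitm3, which blocks virus entry, ran the other way, at 13.18 and 12.59 against 14.55 and 14.38, a difference of -1.58 (SE 0.23, limma adjusted p = 0.14). Of 5 tested genes for other interferon regulatory factors and IRF2-binding proteins, 4 read higher by description and 3 by title, and Irf2 differed by 0.81 (SE 0.17) by description. Of 9 tested nucleic acid sensing genes, 8 read higher by description and 4 by title, and Ikbke, a kinase upstream of IRF3, differed by 0.73 (SE 0.34) by description. 0 genes of these lists passed. All these lists were written with earlier results of the data known.

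ETV6-RUNX1 replicate 2 and control replicate 2 form the only pair for which title and description name the same conditions, and with 1 library each there is no replicate check. There, 16 of 22 members read higher in the fusion library and 6 lower, with a median of 0.56 beside 0.00 over all tested genes. At least 2-fold higher were 6 members, beside 7.4% of all genes: Xaf1 at 1.82, Nmi at 1.45, Ifi27l2a at 1.37, Bst2 at 1.26, Trim21 at 1.18 and Irgm1 at 1.08. None was at least 2-fold lower, where 4.21% of all genes were, and the lowest was Psmb10 at -0.87. Cell type markers also differed in this pair. Of the neutrophil granule genes, Mpo (myeloperoxidase) read 8.0 in control replicate 2 and 4.48 in ETV6-RUNX1 replicate 2, and Prtn3 read 7.20 and 5.51. The other 6 measured neutrophil markers were near the lowest value throughout. The 5 tested mast cell and basophil markers had a median difference of 2.75, with 4 higher and 1 lower in the fusion library. What part these markers had in the members' differences was not tested. Both libraries are also part of the description grouping, so these values are no separate check of it.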

How the data were processed

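RNA of 4 BA/F3 libraries was labelled with biotin for a mouse 3' expression array, per the labels' protocols; the table holds 45101 probe sets. The authors' deposited values, 1 per probe set, are background-corrected and normalized log2 levels from GCRMA 2.28.0, a tool named in the submitters' processing notes. Their range (2.23 to 16.3) is the basis for taking them as log2. Between 54.7% and 54.9% of each library lay within 0.5 of the lowest value, where differences are compressed. Any filter or test of the authors is not given here.

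All 64 control probe sets were left out, and 17720 probe sets with a mean of at least 4 were tested with limma 3.58.1 in R 4.3.3 (eBayes with a trend, two-sided, Benjamini-Hochberg over all of them, threshold 0.05), with 2 libraries per group, by title and by description. Symbols came from the platform annotation (34958 probe sets with 1 symbol, 932 with several, 9211 with none), and RefSeq changed 0 of the members' symbols. The members, lists and naming rule were chosen with earlier results of these data known. All members could be named; from each other list up to 5 genes with the smallest p by description and a set of receptors, class I genes and proteasome subunits. Arrays carry no read depth, so the number of libraries limits precision. Alternatives were other filters, normalizations, blocks, probe set choices and left-out libraries.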

Additional observations from a re-analysis of the deposited data

How the results depend on the processing

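No member passed an adjusted p of 0.05 in either grouping under any alternative run, with a lowest adjusted p over the members of 0.0593 by description with the replicate number as a block, and every alternative by title called 0 probe sets. By description, 2 probe sets of the array were called, and 0 with no filter on low values, 0 with the replicate block, 14 with quantile normalization, 10 with median centring, and 0 whichever library was left out, where the lone library of a group is assumed to vary like the other group. The members' median by description was 0.23 to 0.46 over all alternatives and 0.37 to 0.46 with 1 library left out. By title it was -0.23 to 0.31 with 1 library left out, so it has no settled sign. In the replicate 2 pair the median was 0.11 with no filter, which adds the 13 genes below the limit.

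The numbers do not pair the libraries in the labels. Deviations of same-numbered libraries correlated at -0.20 by title and 0.59 by description, and a crossed pairing as a block, added after seeing the data, also called 0 probe sets by title. With the mean of its probe sets Eif2ak2 differed by -0.077 by description. With 1 library left out, differences by description ran over both signs: -2.17 to 2.82 for Bst2, -1.27 to 1.49 for Tap2, -0.98 to 1.43 for Eif2ak2, -0.41 to 0.33 for Ifit2, -0.65 to 0.28 for Ifi35 and -0.20 to 0.36 for B2m. Others kept their sign and moved by over 1.5 times: 0.08 to 0.93 for Irf9, 0.04 to 1.16 for Irgm1, 0.41 to 1.10 for Oas2, -1.08 to -0.34 for Psmb10, -0.57 to -0.05 for Samhd1, 0.05 to 0.43 for Tap1 and 0.55 to 1.10 for Tapbp, each nearest to 0 without control replicate 2 except Oas2, without control replicate 1. By title the differences with 1 library left out ran from -1.67 to 0.44 for Ifi27l2a and from -1.26 to 3.13 for Bst2. The cause of these shifts was not tested.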

Other observations

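Values for genes that attach or remove ISG15, picked after their values were seen, went both ways by description. Ube2l6, the E2 enzyme, differed by 2.20 (SE 0.22), Uba7, the E1 enzyme, by 1.40 (SE 0.41) and Herc6, an ISG15 ligase of the mouse, by 1.20 (SE 0.29). Uba7 read 9.08 and 8.55 against 7.86 and 6.96, and Herc6 9.41 and 8.74 against 7.96 and 7.79, so both were apart. Trim25, which also has ISG15 ligase activity, read 9.48 and 9.80 against 10.01 and 9.91, a difference of -0.32 (SE 0.18) without overlap. Usp18, which reverses the reaction, lay below the limit for testing, at 2.69 to 3.14. None of these passed (limma adjusted p 0.12 for Ube2l6, 0.21 for Uba7, 0.18 for Herc6 and 0.42 for Trim25).

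Genes near the antigen presentation pathway differed in direction too, again chosen after their values were seen. H2-Oa, a chain of the class II regulator HLA-DO in mouse, read 9.30 and 8.97 against 7.84 and 7.67, higher by 1.38 (SE 0.21, limma adjusted p = 0.14), while Ciita, H2-Aa, H2-Ab1 and H2-Eb1 read 2.23 in every library. Mr1, which presents vitamin metabolites to innate-like T cells, was higher by 1.91 (SE 0.21, limma adjusted p = 0.13). Ifitm2, a neighbour in function of Ifitm3, was lower by 1.10 on the log2 scale (-1.10, SE 0.32).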
